A study of Gallus gallus and Anas platyrhynchos and Coturnix japonica with 43 samples.

Results

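The cytosolic ribosomal proteins are the protein subunits of the ribosome that translates messenger RNA in the cytoplasm. They were taken by gene symbol: RPL or RPS followed by a number, with an optional A, L or X, together with RPLP0, RPLP1, RPLP2 and RPSA. The rule found 44 of the 6428 genes named on the array, 29 of the large subunit and 15 of the small. They rest on 73 spots that hold 67 different cDNA clones, and no spot carried the symbol RPSA. Of the 44 genes, 24 were measured by 1 clone and 20 by several.

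The arrays were Del-Mar 14K spotted chicken cDNA arrays, and the study asked how well an array of chicken clones reads the RNA of other birds. Each of the 43 arrays received Cy3-labelled cDNA of 1 tissue sample and Cy5-labelled cDNA of a pooled chicken reference made from liver, abdominal fat, breast muscle and hypothalamus RNA. Chicken liver, breast muscle and abdominal fat came from Ross x Cobb broiler cockerels aged 6 weeks, and chicken hypothalamus from lean line cockerels aged 9 weeks, a line selected for little abdominal fat, so line and age cannot be told apart from tissue there. The other groups were liver of White turkey, Japanese quail, duck, American kestrel and Tree sparrow, and hypothalamus of White turkey, Japanese quail and duck, with no age at sampling and no treatment given in the labels. Groups held 4 arrays in the 4 chicken tissues and in turkey, quail and duck liver, and 3 arrays in the other 5. The labels number the replicates without saying that each was a separate bird, so each p-value covers the spread of the samples at hand, and that spread may be partly technical.

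A ribosome holds one copy of nearly every ribosomal protein, and cells make the proteins in matched amounts and degrade the excess. In vertebrates their mRNAs begin with a run of pyrimidines, the 5′ terminal oligopyrimidine motif, through which nutrient and growth signals acting on mTOR set their translation. The mRNAs are abundant in most tissues, and ribosomal protein genes are often used as references in expression studies for that reason. Differences between tissues in single ribosomal proteins have been described in mammals, mostly for paralogues such as RPL3L in striated muscle and RPL39L in testis.

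Values are log2 of the ratio deposited for each spot, with the median of all spots of the array taken off, averaged over spots to clones and over clones to genes. A value of 0 is thus the middle of the array, and a value of 1 means that sample over reference is 2-fold higher than for the middle spot. Sample over reference is the likely direction, because group medians of tissue markers behaved so in the chicken tissues. The medians of 7 hepatocyte genes, 5 neuronal genes, 5 skeletal muscle genes and 3 adipocyte genes were 0.70 in chicken liver, 0.90 in chicken hypothalamus, 0.57 in breast muscle and 0.75 in abdominal fat. On single breast muscle arrays the skeletal muscle median ran from -1.96 to 1.47, against -2.43 to -1.44 on chicken liver arrays. The lowest muscle array thus lay within the liver range. On sparrow liver arrays this median ran from -2.07 to 1.58, against -2.61 to -1.16 in kestrel liver. Whether these arrays hold the tissue of their label was not tested. In other birds these markers were weaker: the hepatocyte median was 0.37 in turkey liver and 0.10 in quail liver, but -0.85 in duck, -1.44 in kestrel and -1.53 in sparrow liver, and the neuronal median was -0.18 in duck hypothalamus. Every spot is a chicken clone, so a weaker match of another bird's sequence and a lower mRNA level cannot be told apart. As these are bulk tissues, fewer cells of a type and less RNA per cell cannot be told apart either. The lowest correlation between arrays was -0.40, 11 of 903 pairs lay under -0.3, and none of these joined arrays of 1 group.

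The median of the 44 genes lay below the middle of the array in every group, and by similar amounts in all 4 chicken tissues. Averaged over arrays, their median log2 ratio was -0.35 ± 0.51 (SD, n = 4) in chicken liver, -0.39 ± 0.38 (n = 4) in hypothalamus, -0.39 ± 0.25 (n = 4) in breast muscle and -0.34 ± 0.43 (n = 4) in abdominal fat. The corresponding mean for all named genes lay between -0.06 and 0.01 in the 12 groups. In order, the other birds ran from duck hypothalamus at -0.74 ± 0.44 (n = 3), duck liver at -0.63 ± 0.34 (n = 4), turkey hypothalamus at -0.62 ± 0.49 (n = 3), kestrel liver at -0.53 ± 0.13 (n = 3), sparrow liver at -0.49 ± 0.55 (n = 3) and quail hypothalamus at -0.42 ± 0.44 (n = 3) to quail liver at -0.35 ± 0.18 (n = 4) and turkey liver at -0.33 ± 0.16 (n = 4). The whole order spans 0.41, which is about the SD between single arrays of 1 group, pooled at 0.38. That is not the error of a group mean, and the order was not tested.

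**Figure D1:**
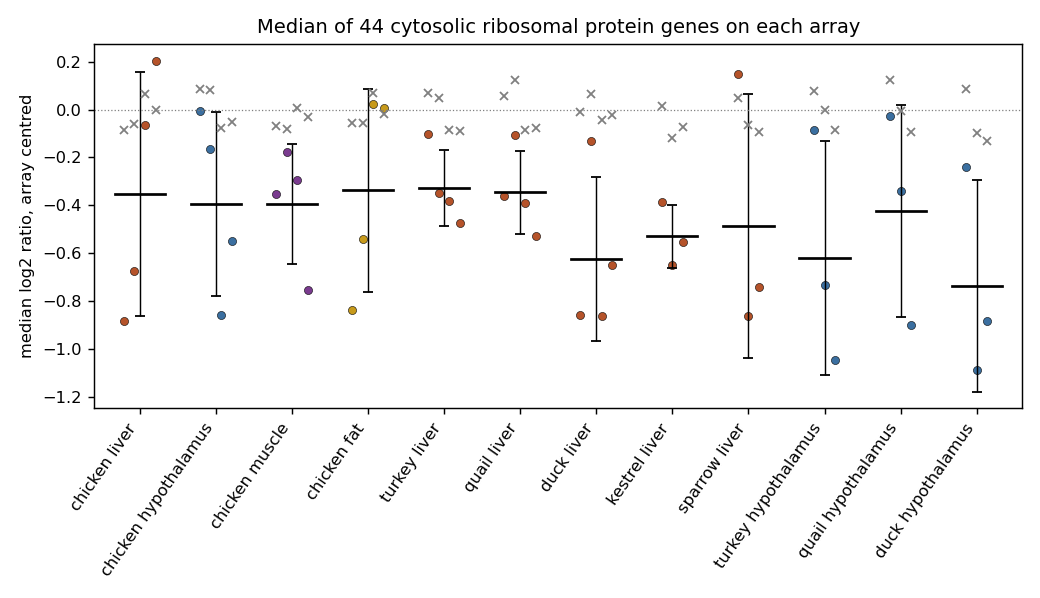
The median array-centred log2 ratio of the 44 genes on each array (filled points, coloured by tissue) is plotted for the 12 groups, with the group mean (bar) and SD (whiskers) and with the median of all named genes on the same array (grey crosses). The filled points lie below 0 on 39 of 43 arrays, and arrays of 1 group spread as widely as the groups do.

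On single arrays the median of the 44 genes ranged from -1.09 to 0.21, and it was below 0 on 39 of 43 arrays. In chicken liver the 4 arrays read -0.88, -0.68, -0.06 and 0.21, and in chicken fat -0.84, -0.54, 0.03 and 0.01. Thus 2 liver arrays and 2 fat arrays stood near the middle of the array and the other 2 of each far below it. The sample always carried Cy3 and the reference always Cy5, so this offset would include any dye effect. The reference pool was made from the same 4 chicken tissues, and the source of the offset in them was not tested. In the other birds a dye effect, a weaker match to the chicken clones and a lower level in the samples cannot be told apart in it. A dye effect that is the same on all arrays is absent from the differences between groups given below. Taking off the median of each print block or of each of the 20 print rows left the median below 0 on 40 and 38 of 43 arrays.

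**Figure D2:**
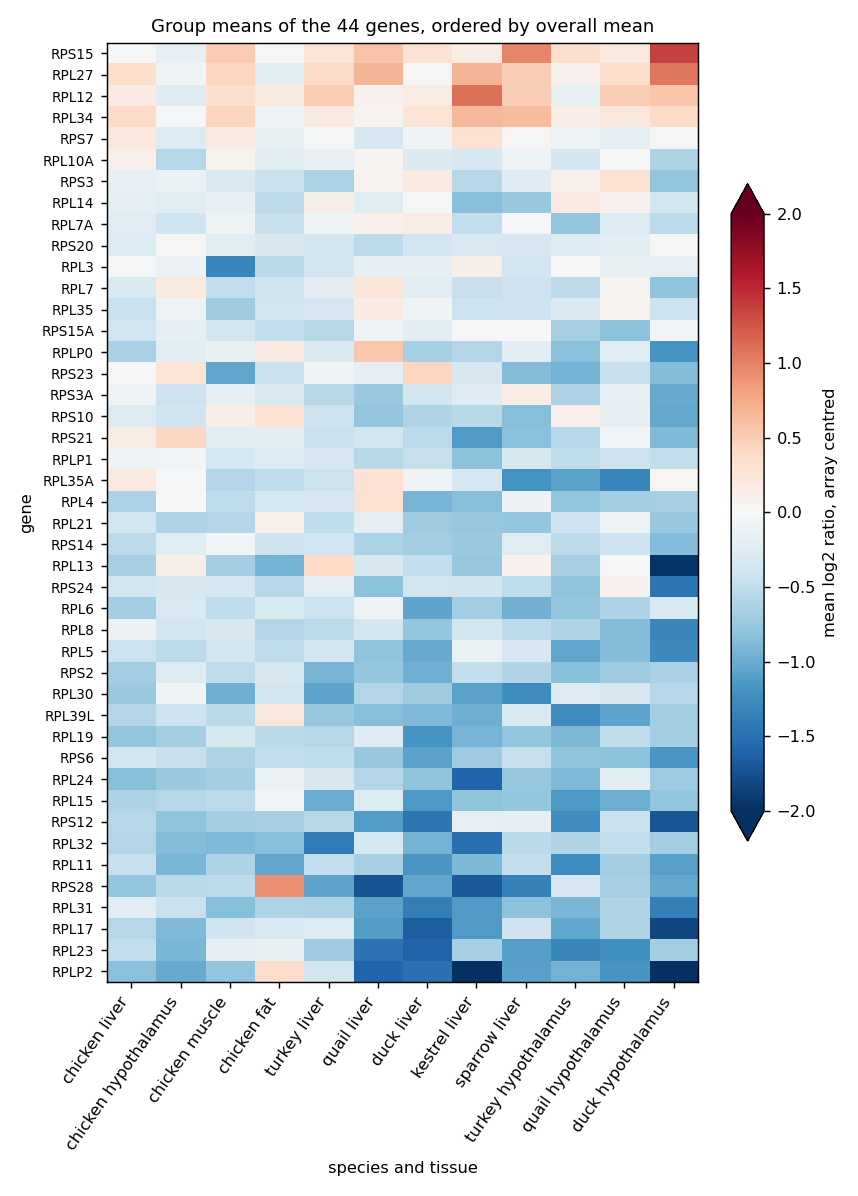
Colours give the mean array-centred log2 ratio of each of the 44 genes (rows, from the highest to the lowest overall mean) in the 12 groups (columns); blue is below the middle of the array and red above, and colours saturate at 2 either way. RPS15, RPL27, RPL12 and RPL34 form the band above 0 at the top, and the red cell of RPS28 in chicken fat stands alone in its row.

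The offset was shared by most of the genes. Over the 12 groups, 40 of the 44 genes had a mean below 0, and 18 had a group mean below 0 in every one of the 12 groups, whereas 0 lay above 0 in all of them. The groups share a reference and a dye, so the 12 signs of a gene are not independent. The share of all named genes below 0 in all 12 groups is not given here. The gene with the median overall mean stood at -0.47, where all named genes had a median of -0.00, and 9.71% of named genes lay lower than that. Within each group, 32 to 38 of the 44 genes had a mean below 0, against 45.8% to 55.8% of all named genes. The median group mean of the large subunit genes was lower than that of the small in 9 of 12 groups, for example -0.44 against -0.28 in chicken liver, and higher in the other 3, as in quail liver at -0.26 against -0.63. On single arrays the large subunit median was the lower one on 29 of 43, with a median difference of -0.13 over the arrays.

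The lowest overall means belonged to RPLP2, a protein of the stalk that recruits elongation factors (-1.11), and to RPL23, which sits at the face that meets the small subunit (-0.88). RPL17 (-0.85) and RPL31 (-0.84), both at the mouth of the tunnel through which the new protein leaves, and RPS28 of the small subunit (-0.82) came next. At the other end stood RPS15, a protein of the head of the small subunit (0.38), RPL27 (0.35), RPL12, at the base of the stalk (0.31), RPL34 (0.27) and RPS7 (-0.04). The first 4 of these were the genes with a mean above 0. Since each gene's ratio is against the same pool, these means rank ratios and not amounts of mRNA.

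The stalk is the part of the large subunit where the 3 P proteins bind elongation factors. RPLP2 had its highest group mean in chicken fat, 0.35 ± 0.77 (SD, n = 4), and its lowest in kestrel liver, -2.37 ± 0.95 (n = 3). RPLP0, the protein that anchors the stalk, ran from -1.18 in duck hypothalamus to 0.55 in quail liver, the latter carried by replicate 2 at 3.00 while the other 3 arrays read 0.13, -0.68 and -0.27. RPLP1, the partner of RPLP2 in the stalk dimer, varied least, from -0.82 in kestrel liver to -0.05 in chicken hypothalamus. Its value averages 3 spots of 2 clones with r = -0.38 between the clones, and RPLP2 has 1 spot. None of the 3 was called in any comparison. Over the 43 arrays, as deviations from their group means, RPLP1 and RPLP2 had r = 0.64, RPLP0 and RPLP2 r = 0.34, and RPLP0 and RPLP1 r = 0.28, which describe arrays that share reference, dye and print position.

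To ask whether single ribosomal proteins differ between tissues, each chicken tissue was set against the average of the remaining 3 in a limma fit over all 43 arrays, with p-values adjusted over all 6428 genes. Genes with an adjusted p under 0.05 count as called. Of the 44 genes, 1 was called, RPS28 in abdominal fat. The 4 comparisons share the same chicken arrays. In liver 0 of 44 were called, against 1.99% of all named genes, in hypothalamus 0 of 44 against 0.482%, in breast muscle 0 of 44 against 0.591%, and in fat 1 of 44 against 1.24%. With 44 genes these shares give under 1 call each, so neither the 3 counts of 0 nor the single call stands off from the background. At an unadjusted p under 0.05 the counts were 0, 1, 1 and 3 of 44, against 6.78%, 8.07%, 7.05% and 6.58% of all named genes.

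RPS28, a small subunit protein placed near the channel where the mRNA leaves, was higher in chicken abdominal fat than in the other chicken tissues. Its log2 ratios in fat were 0.91, 1.08, 1.48 and 0.20 in replicates 1 to 4. They were -0.77, -1.36, -0.51 and -0.44 in liver and -0.27, -0.58, -0.01 and -1.24 in breast muscle. All 4 fat arrays were thus above 0 and all 8 liver and muscle arrays below it. In hypothalamus they were 0.51, -0.17, -1.46 and -1.03, so that replicate 1 lay above the lowest fat array and the groups overlapped at that array alone. The log2 difference of fat from the mean of the other 3 tissues was 1.53 (SE 0.36, 95% interval 0.80 to 2.26, adjusted p = 0.0175 by limma). In the other birds RPS28 lay below 0 on all 27 arrays, from -2.66 to -0.19. It was also the one gene of the 44 called by the F test for any difference among the 12 groups (adjusted p = 0.00617), where 4.78% of all named genes were called.

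The RPS28 result rests on 1 clone on 1 spot, and the call was lost without fat replicate 1 (adjusted p = 0.0695), without fat replicate 2 (adjusted p = 0.0878), without fat replicate 3 (adjusted p = 0.154) and with arrays not centred (adjusted p = 0.0533), while the difference stayed between 1.34 and 1.77 in every fit that left out 1 chicken array. With the replicate number as a block, the adjusted p was 0.00256 by limma. This block gave each replicate number 1 effect shared by all species and tissues, and the labels do not say that numbers pair samples. As deviations from group means, same-numbered arrays of chicken fat and hypothalamus had a mean r of -0.36. As list medians on single arrays, adipocyte and matrix markers were also higher in fat, while leukocyte, endothelial and erythrocyte markers overlapped with the other chicken tissues. Of the adipocyte genes, 3 of 4 were measured and ran from 0.19 to 0.88 in fat and from -2.11 to -0.43 in the other chicken tissues. All 3 fibroblast and matrix genes were measured, from 0.13 to 1.84 in fat and from -2.56 to -0.29 elsewhere. Of the leukocyte genes, 2 of 3 ran from 0.14 to 0.65 in fat and from -1.66 to 0.20 elsewhere. All 3 endothelial genes were measured, from -0.01 to 0.56 in fat and from -1.01 to 0.54 elsewhere, and 3 of 9 erythrocyte genes, from -0.28 to 0.71 in fat and from -1.11 to 0.91 elsewhere. Their part in the RPS28 result was not tested, and a ratio has no zero at which a marker would be absent. Fat and muscle RNA were extracted by guanidine and caesium chloride and the other tissues with a column kit, and RPS28 averaged -0.53 ± 0.53 (SD, n = 4) in muscle and 0.92 ± 0.54 (n = 4) in fat. The part of extraction in the RPS28 result was not tested.

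**Figure D3:**
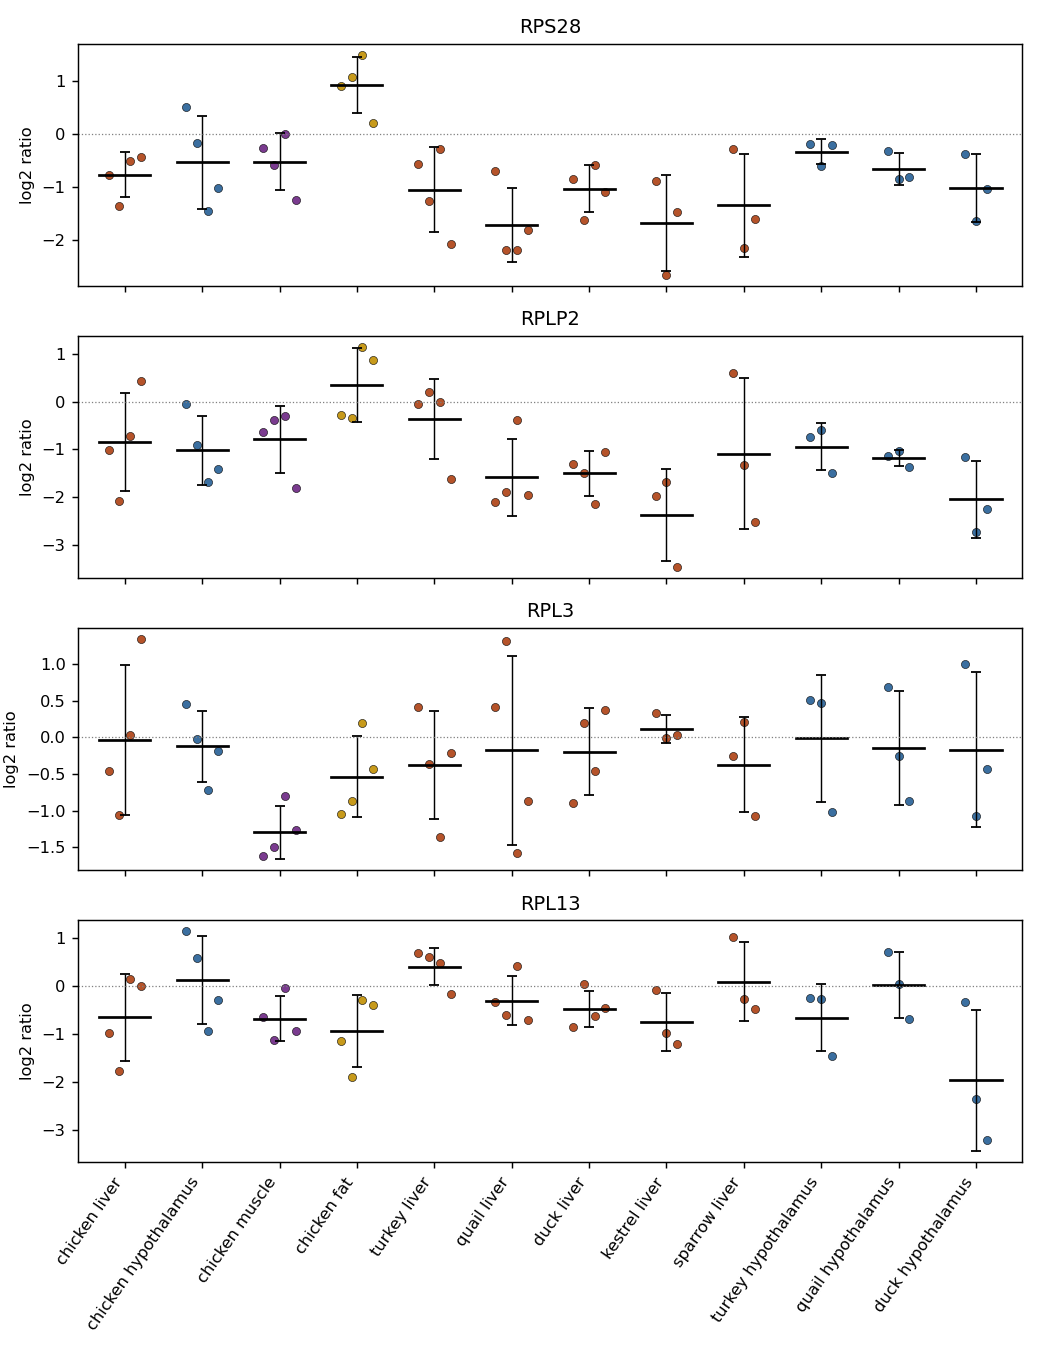
Array-centred log2 ratios of RPS28, RPLP2, RPL3 and RPL13 are shown on every array of the 12 groups, with the group mean (bar) and SD (whiskers). RPS28 stands above 0 on all 4 chicken fat arrays and on 1 of the other 39, RPL3 is lowest in chicken muscle, and the 3 duck hypothalamus arrays of RPL13 spread from -3.21 to -0.34.

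Other genes with high values in fat did not pass the test. RPLP2 read -0.27, -0.34, 1.14 and 0.87 in fat, -1.004, -2.07, -0.71 and 0.42 in liver, -0.04, -0.91, -1.69 and -1.42 in hypothalamus, and -0.64, -0.38, -0.30 and -1.81 in muscle. Fat replicates 3 and 4 were the highest of the 16 chicken arrays, while replicates 1 and 2 lay among those of the other tissues. The difference was 1.23 (SE 0.45, 95% interval 0.32 to 2.13, adjusted p = 0.316 by limma). RPL39L, a paralogue of the exit tunnel protein RPL39 that is best known from mammalian testis, differed by 0.75 (SE 0.33, adjusted p = 0.565), with fat arrays from -0.04 to 0.57. The lowest 3 in fat were RPL13 at -0.53, RPL27 at -0.45 and RPL11 at -0.38, with adjusted p = 0.999 for each.

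Breast muscle had its lowest value in RPL3, a protein that reaches toward the catalytic centre of the large subunit and whose paralogue RPL3L is the muscle form in mammals. RPL3L itself was not among the named genes. RPL3 read -1.62, -1.50, -0.80 and -1.27 in the 4 muscle arrays, -1.05, -0.87, 0.19 and -0.44 in fat, 0.46, -0.03, -0.72 and -0.19 in hypothalamus, and -0.45, -1.06, 0.03 and 1.34 in liver. Muscle arrays were the low ones, but replicate 3 overlapped with fat and liver. Skeletal muscle markers differed widely among the 4 muscle arrays, as given above. The log2 difference was -1.06 (SE 0.42, 95% interval -1.92 to -0.21, adjusted p = 0.473 by limma), and both RPL3 clones had their lowest group mean in muscle, -1.52 and -1.07. RPS23, a protein of the decoding centre, followed at -0.996 (SE 0.55) and RPL30 at -0.58 (SE 0.42), and the highest 3 were RPS15 at 0.55, RPL27 at 0.42 and RPL19 at 0.35.

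In liver and hypothalamus no gene passed the test. In liver the highest 3 were RPL3 at 0.61, RPL35A at 0.58 and RPS23 at 0.42, and the lowest were RPS28 at -0.72, RPLP0 at -0.60 and RPLP2 at -0.36. Each had an adjusted p of 0.747 or more. In hypothalamus RPL13 was highest at 0.88 (SE 0.41, adjusted p = 0.547 by limma), then RPS23 at 0.77 and RPL30 at 0.61, and RPL23 at -0.63, RPLP2 at -0.59 and RPL10A at -0.56 were lowest. The values of fat, muscle, liver and hypothalamus are not independent, since a gene high in 1 tissue is low in the comparison of the others.

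How closely the tissues could be bounded differed by gene. The 95% interval of the difference lay within 1 either way on the log2 scale, a fold of 2, for 27 of 44 genes in liver, 23 in hypothalamus, 26 in muscle and 24 in fat, against 65.6%, 59.5%, 62.1% and 66.1% of all named genes. For the remaining genes a 2-fold difference was within the interval. The median difference of the 44 genes was 0.01 in liver, -0.07 in hypothalamus, -0.05 in muscle and -0.07 in fat, where all named genes had medians of -0.01, 0.01, -0.06 and -0.03.

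**Figure D4:**
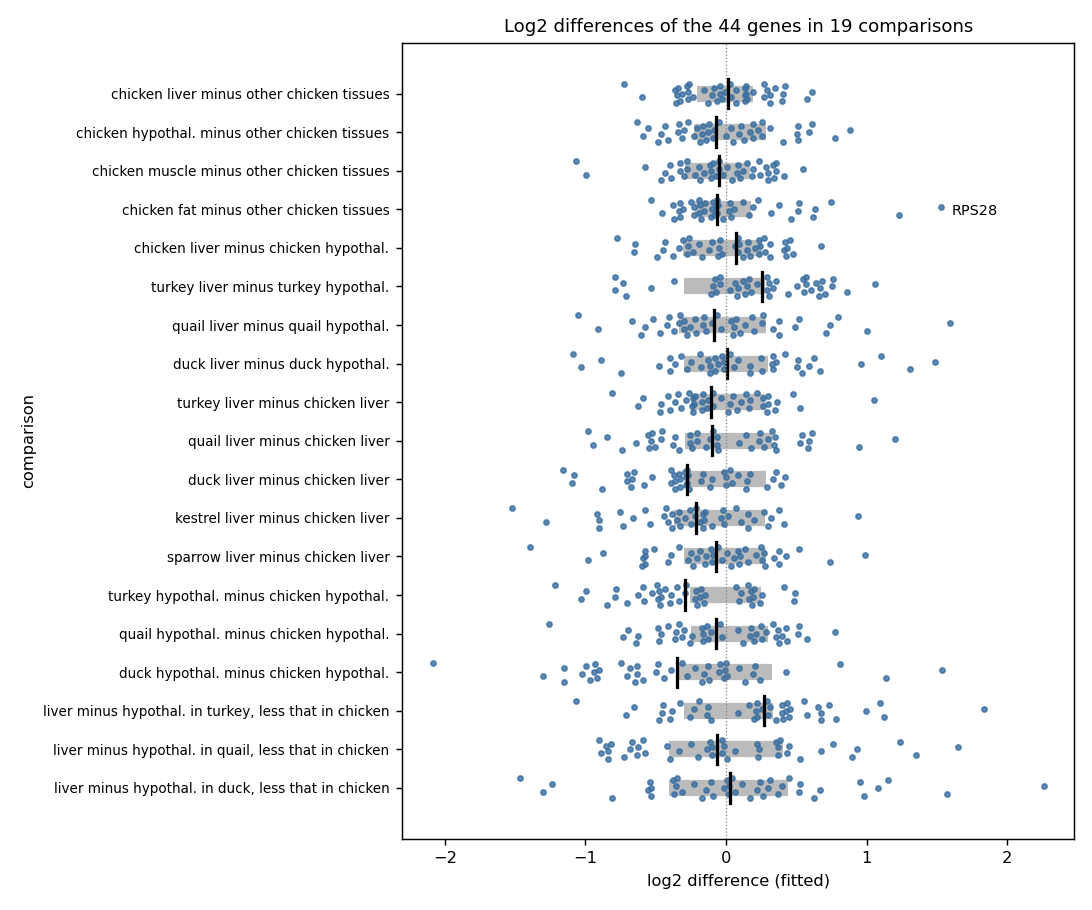
Each point is the fitted log2 difference of 1 of the 44 genes in 1 of the 19 comparisons, with the median of the 44 (black bar) and the range from the lower to the upper quartile of all named genes (grey band). The black bars lie between -0.35 and 0.27, and RPS28 in chicken fat is the one point that passed the test.

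Liver was compared with hypothalamus within 4 species. In chicken 0 of 44 genes were called against 1.51% of all named genes, in turkey 0 of 44 against 0.685%, in quail 0 of 44 against 0.56%, and in duck 0 of 44 against 0.0%. At an unadjusted p under 0.05 the counts were 0, 0, 2 and 1 of 44, against 7.79%, 5.93%, 8.62% and 5.40% of all named genes. The median difference of the 44 genes was 0.07 in chicken, 0.26 in turkey, -0.08 in quail and 0.00 in duck, and 32 of 44 genes were higher in liver than in hypothalamus in turkey against 23, 20 and 22 in the other 3. The turkey value lies within the pooled SD of the member median between single arrays of 1 group, which was 0.38. That is not the error of a difference between groups, and the turkey value was not tested.

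The largest difference between liver and hypothalamus in a species was that of RPL35A in quail, a large subunit protein that is among the genes mutated in human Diamond-Blackfan anaemia. It read 0.01, 0.46, 0.23 and 0.46 in quail liver and -1.12, -1.07 and -1.73 in quail hypothalamus. These groups did not overlap, and the difference was 1.59 (SE 0.54, 95% interval 0.51 to 2.68, adjusted p = 0.236 by limma). RPL4, which lines the exit tunnel, followed at 1.00 and RPLP0 at 0.79, and RPS28 at -1.06, RPS24 at -0.91 and RPS12 at -0.67 were lowest.

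The highest 3 in chicken liver against hypothalamus were RPL10A at 0.68, RPS7 at 0.47 and RPL11 at 0.46, and the lowest RPL13 at -0.78, RPL30 at -0.66 and RPL4 at -0.65. In turkey they were RPL13 at 1.06, RPS23 at 0.86 and RPL17 at 0.76, and RPL32 at -0.79, RPL30 at -0.79 and RPS3 at -0.73. RPL13 thus had opposite signs in chicken and turkey, where neither difference passed the test. In duck RPL13 was again highest at 1.48, then RPS23 at 1.31 and RPS24 at 1.10. RPS15 at -1.09, RPL27 at -1.03 and RPL23 at -0.89 were lowest. The RPS23 value includes duck liver replicate 2 at 3.71, its highest of the 43 arrays.

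The difference of these differences from chicken was fitted as an interaction. For turkey 0 of 44 genes were called against 0.0% of all named genes, for quail 0 of 44 against 0.0156% and for duck 0 of 44 against 0.0311%, and 1, 1 and 2 of 44 had an unadjusted p under 0.05, against 1.71%, 5.35% and 5.71% of all named genes. RPL13 was highest in turkey at 1.84 (SE 0.74, adjusted p = 1.0) and in duck at 2.26 (SE 0.74, adjusted p = 0.56 by limma). Next in turkey were RPS23 at 1.13 and RPL4 at 1.09, with RPL32 at -1.07, RPS3 at -0.71 and RPS10 at -0.65 lowest. For quail the highest were RPL4 at 1.65, RPL35A at 1.35 and RPLP0 at 1.24, and the lowest RPS12 at -0.90, RPS3A at -0.89 and RPS24 at -0.86. After RPL13, duck had RPS23 at 1.57 and RPS24 at 1.15, with RPL27 at -1.46, RPL23 at -1.30 and RPS15 at -1.24 lowest. This RPS23 value also includes duck liver replicate 2 at 3.71. Standard errors here had a median of 0.68 over the 44 genes, and in 0, 2 and 2 of 44 did the 95% interval lie within 1 either way.

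Livers of the other birds were set against chicken liver, and these 5 comparisons share the 4 chicken liver arrays. In turkey 0 of 44 genes were called against 0.0467% of all named genes, in quail 0 of 44 against 0.513%, in duck 0 of 44 against 0.762%, in kestrel 0 of 44 against 1.21% and in sparrow 0 of 44 against 0.793%. At an unadjusted p under 0.05 the counts were 1, 3, 3, 4 and 2 of 44, against 5.16%, 9.75%, 7.89%, 8.82% and 7.16% of all named genes. The median difference of the 44 genes was -0.11 in turkey, -0.10 in quail, -0.28 in duck, -0.22 in kestrel and -0.07 in sparrow, where all named genes had medians of 0.02, 0.03, 0.01, -0.03 and 0.01. In duck and in kestrel liver, 32 of the 44 genes lay below chicken liver, and in turkey, quail and sparrow 25, 26 and 24.

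In kestrel liver RPS21, a small subunit protein, read -0.88, -0.88 and -1.62, against 0.02, -0.17, 0.28 and 0.46 in chicken liver. The groups did not overlap, and the difference was -1.28 (SE 0.39, 95% interval -2.08 to -0.48, adjusted p = 0.12 by limma). RPS21 rests on 2 spots of 1 clone whose values had r = 0.08 over the 43 arrays and differed by a median of 1.19. In kestrel RPLP2 was lower still at -1.53 (SE 0.59, adjusted p = 0.322) and RPL32 stood at -0.92, while RPL12 at 0.94, RPS12 at 0.41 and RPS15A at 0.38 were highest.

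Duck liver had its lowest values in RPL31 at -1.16, RPL23 at -1.10 and RPL17 at -1.08. Its highest were RPS23 at 0.42, RPL7A at 0.39 and RPL35 at 0.36. The RPS23 value was carried by replicate 2 at 3.71, the highest RPS23 value of the 43 arrays. RPL23 was also lowest in quail liver at -0.98, then RPS28 at -0.95 and RPL31 at -0.84, and RPLP0 at 1.20, RPL4 at 0.95 and RPL35 at 0.61 were highest. RPL23 read -0.66, -0.43, -0.69 and -0.21 in chicken liver, -2.09, -0.66, -1.56 and -2.06 in duck liver and -1.11, -1.95, -2.13 and -0.71 in quail liver. The duck arrays overlapped with chicken at replicate 2, and the quail arrays lay below all chicken arrays. Its adjusted p was 0.427 for duck and 0.447 for quail by limma, and 0.0457 for duck when arrays were weighted by quality.

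In turkey liver the values ran between RPL13 at 1.05, RPL24 at 0.53 and RPLP2 at 0.47 at the top and RPL32 at -0.81, RPL35A at -0.63 and RPS21 at -0.59 at the bottom. Sparrow liver had RPS15 at 0.99, RPL13 at 0.74 and RPL4 at 0.52 highest, and RPL35A at -1.39 (SE 0.54, adjusted p = 0.404 by limma), RPS21 at -0.98 and RPS23 at -0.88 lowest. RPS21 was thus among the lowest 3 in turkey, kestrel and sparrow liver, which share the chicken arrays. The sparrow values average arrays of unlike skeletal muscle marker level, as given above.

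The hypothalamus of turkey, quail and duck was compared with that of chicken, and these 3 comparisons share the 4 chicken arrays. In turkey 0 of 44 genes were called against 0.14% of all named genes, in quail 0 of 44 against 0.0467% and in duck 0 of 44 against 0.327%. At an unadjusted p under 0.05 the counts were 1, 2 and 5 of 44 (11.4% for duck), against 3.22%, 3.80% and 8.82% of all named genes. The median difference of the 44 genes was -0.29 in turkey, -0.07 in quail and -0.35 in duck, with 30, 24 and 33 of the 44 lying below chicken, where all named genes had medians of 0.00, 0.03 and -0.01. In duck 7 of 44 genes differed by more than 1 either way, 15.9% against 6.32% of all named genes. Among other comparisons with chicken, this share was above that of all named genes in turkey hypothalamus, at 4.55% against 2.04%. The same held in duck liver, at 6.82% against 4.87%. The share was below that of all named genes in kestrel liver, at 4.55% against 6.49%, and in sparrow liver, at 2.27% against 5.40%. It was also lower in quail liver, at 2.27% against 5.26%. In turkey liver it was 2.27% against 2.30%, and in quail hypothalamus 2.27% against 2.36%. Arrays were not scaled, and duck hypothalamus replicate 3 had an SD of 1.00 over all named genes. The median difference of the 44 genes in duck hypothalamus stayed below 0 in the 11 other settings, from -0.51 to -0.03.

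The largest difference between any of the compared groups was that of RPL13, a large subunit protein, in duck hypothalamus. It read -0.34, -2.36 and -3.21 in duck and 1.13, 0.58, -0.94 and -0.30 in chicken hypothalamus, so duck replicate 1 lay within the chicken range and the other 2 far below it. The difference was -2.09 (SE 0.54, 95% interval -3.18 to -0.995, adjusted p = 0.104 by limma). It was called without duck replicate 1 (-2.90, adjusted p = 0.0036), without chicken replicate 3 (-2.44, adjusted p = 0.0393) and with array weights (-2.13, adjusted p = 0.00958), and not when any other array was left out. RPL13 has 1 clone on 1 spot.

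Next in duck hypothalamus came RPS21 at -1.30 (SE 0.39, adjusted p = 0.208 by limma) and RPS23 at -1.15, and RPS15 at 1.53 (SE 0.57, adjusted p = 0.399), RPL27 at 1.14 and RPL12 at 0.81 were highest. RPS21 read -0.56, -1.03 and -1.05 in duck against 0.77, 0.92, -0.06 and 0.05 in chicken, with no overlap. In turkey the lowest were RPS23 at -1.22, RPL35A at -1.03 and RPS21 at -0.998, and the highest RPS15 at 0.49, RPS10 at 0.49 and RPL14 at 0.41. In quail RPL35A at -1.26, RPS23 at -0.73 and RPL4 at -0.70 were lowest, and RPL12 at 0.77, RPL10A at 0.57 and RPL24 at 0.52 highest.

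Over all 12 groups the F test called RPS28 alone. RPLP2 came next with an adjusted p of 0.079, then RPL13 at 0.158 and RPS21 at 0.178, and 6 of 44 genes had an unadjusted p under 0.05, against 14.0% of all named genes. RPLP2 was called by the F test without duck hypothalamus replicate 1, quail liver replicate 3, sparrow liver replicate 1, sparrow liver replicate 2 or turkey liver replicate 4, with adjusted p from 0.0197 to 0.0485, RPS21 without sparrow liver replicate 1 (adjusted p = 0.0355), and RPL13 without duck hypothalamus replicate 1 (adjusted p = 0.0151). The spread of the 12 group means had a median SD of 0.35 over the 44 genes and 0.31 over all named genes. Within groups the residual SD had a median of 0.68 over the 44 genes and 0.57 over all, and 72.7% of named genes had a smaller one than the median member. RPLP1 had the smallest at 0.39 and RPS23 the largest at 1.04. RPLP1 averages 3 spots of 2 clones with r = -0.38 between the clones. RPS23 has 1 spot and read 3.71 on duck liver replicate 2.

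Within groups most of the genes moved up and down together from array to array. As deviations from group means over the 43 arrays, the 946 pairs of the 44 genes had a median r of 0.36, with 74.9% above 0, where all pairs of named genes had a median r of 0.03, with 53.3% above 0. RPS23 followed the median of the other 43 genes with r = 0.78 and RPL13 with r = 0.77. For RPS23 this includes duck liver replicate 2 at 3.71, and r without that array is not given here. Of the 44 genes, 6 went the opposite way. RPS15 had r = -0.69, RPL27 -0.61, RPL10A -0.44, RPS7 -0.39, RPL12 -0.32 and RPL34 -0.24, and RPL27 and RPS15 had r = 0.79 with each other. The 4 genes with an overall mean above 0 were all among these 6.

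**Figure D5:**
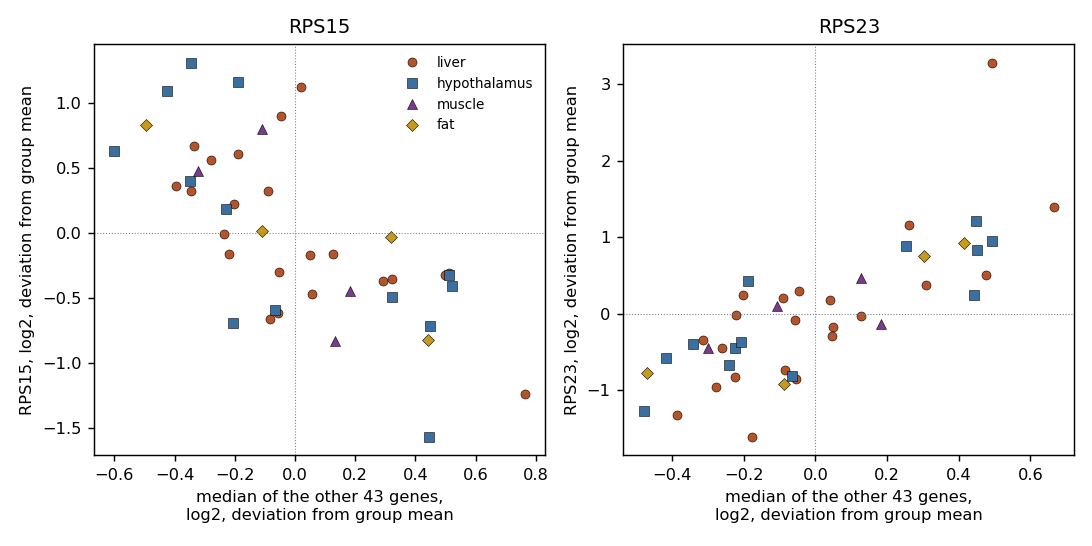
Each point is 1 of the 43 arrays, with the median of the other 43 genes on the horizontal axis and RPS15 (left) or RPS23 (right) on the vertical axis, both as log2 deviations from the group mean, with symbols by tissue. RPS15 falls from upper left to lower right (r = -0.69) and RPS23 climbs from lower left to upper right (r = 0.78).

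In quail liver, for example, RPS15 read 0.11, -0.08, 1.47 and 0.80 and RPL27 read -0.29, -0.02, 1.59 and 1.45. Both were high on replicates 3 and 4 of the 4. In chicken muscle RPL27 read 0.96, 0.63, -1.02 and 1.18, against 1.30, 0.05, -0.33 and 0.98 for RPS15, with replicate 3 lowest for both. Print position moves with array values here: the 20 print rows accounted for 2.41% to 19.1% of an array's variance. RPS15, RPL27 and RPL12, which opposed the other genes, all lie in print row 8. RPLP2, RPL11, RPL24, RPL31 and RPL32 lie in the same row and followed the other genes, with r = 0.64 for RPLP2 and from 0.56 to 0.73 for the rest. With the row medians taken off, r was -0.71 for RPS15, -0.56 for RPL27 and -0.10 for RPL12, and 0.71 between RPL27 and RPS15. Arrays were centred but not scaled to 1 spread. In sparrow liver the SD over all named genes was 0.44 on replicate 1, where the member median was 0.15. It was 0.92 on replicate 3, where the member median was -0.86. In turkey liver, turkey hypothalamus and kestrel liver the member median was also lower the wider the array. In turkey hypothalamus the SD was 0.57, 0.65 and 0.87 and the median -0.09, -0.73 and -1.04 in replicates 1 to 3. In chicken fat and chicken liver, replicates 1 and 2 had wider spreads and lower medians than replicates 3 and 4. Some other groups were mixed: quail liver had an SD of 0.61 and a median of -0.36 on replicate 1 against 0.88 and -0.11 on replicate 2. These values describe arrays that share a reference, a dye and a print layout and differ in spread, and what moved the genes was not tested.

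Different clones of 1 gene agreed more often than not. The 26 clone pairs of the 20 genes with several clones had a median r of 0.26 over the 43 arrays, from -0.38 for RPLP1 to 0.62 for RPL35, with 21 above 0 (80.8%). Over all named genes 4747 clone pairs had a median r of 0.06, with 56.5% above 0. Pairs of different genes among the 44, as deviations from group means, had a median r of 0.36, with 74.9% above 0. Agreement of clones of 1 gene therefore cannot be told apart from the shared movement of the set. RPS6, the substrate of S6 kinase, had 3 clones that agreed in level as well, at -0.78, -0.61 and -0.67, each below 0 in all 12 groups. RPL21 had 2 clones at -0.72 and -0.82 and the other at 0.12, and RPS7 had clones at 0.32, -0.63 and 0.19. RPL15, with 2 clones at -0.73 and -0.71, was below 0 in all 12 groups by both, and RPL34, above 0 as a gene, had clones at 0.67 and -0.13 with r = -0.29 between them.

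Spots listed under the same clone also agreed weakly. For the 6 clones listed on 2 spots, of RPL30, RPL14, RPS21, RPLP1, RPS2 and RPL34, r over the arrays ran from -0.28 to 0.23 and the median difference between the spots from 0.70 to 1.28. Over all named genes, 456 clones listed on 2 spots had a median r of 0.13 between the spots, with 66.9% above 0, and all pairs of named spots had a median r of 0.01, with 51.8% above 0. Whether each spot carries the clone listed for it was not tested, so the identity of genes read from 1 spot, RPS28, RPL13 and RPLP2 among them, rests on the platform annotation alone. Precision is limited by the number of arrays, and without spot intensities the signal over background of these clones is unknown.

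Genes related to the ribosome by function were read from lists chosen with earlier results of these data known. Of the mitochondrial ribosomal proteins, which build the separate ribosome of mitochondria, 37 were measured and 0 were called by limma in any of the 19 comparisons, with 29 of 703 differences (4.13%) at an unadjusted p under 0.05, against 6.51% over all named genes. Their median group mean ran from -0.09 to 0.09, so the offset of the cytosolic set was not seen in them. Of 20 other mRNAs with a terminal oligopyrimidine start, such as translation elongation factors, 18 were measured, and their median ran from -0.51 in duck hypothalamus to 0.05 in chicken fat. PABPC1, the poly(A)-binding protein, was the one called among them, higher in chicken fat by 1.39 (SE 0.30, adjusted p = 0.00586 by limma). In that comparison 1.24% of all named genes were called. Its mean was 0.81 in fat and from -0.74 to -0.50 in the other 3 chicken tissues. Of the 342 differences of the 18 genes, 23 (6.73%) had an unadjusted p under 0.05 by limma, against the same 6.51%.

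Ribosome biogenesis factors, which assemble and export the subunits, were measured for 26 of 51 genes, with medians from 0.02 to 0.28 over the groups. MRTO4, known from yeast as the placeholder for RPLP0 on the nascent large subunit, was lower in duck than in chicken, with a log2 difference of -2.14 in liver (SE 0.51, adjusted p = 0.0249 by limma) and of -2.58 in hypothalamus (SE 0.55, adjusted p = 0.0178). Of all named genes, 0.762% were called in that liver comparison and 0.327% in that hypothalamus comparison. The group means of MRTO4 in the 4 chicken tissues lay between -0.49 and 0.12 and in the 8 other groups between -2.63 and -1.23. Of the 494 differences of the 26 genes, 23 (4.66%) had an unadjusted p under 0.05 by limma, against 6.51% over all named genes. Of 10 ribosomal proteins and close partners outside the symbol rule, NACA, RACK1 and RPL7L1 were measured, and 0 were called by limma, with 1 of 57 differences (1.75%) at an unadjusted p under 0.05, against the same 6.51%.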

How the data were processed

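Measured were 43 two-colour arrays, Cy3 sample against Cy5 reference without dye exchange, labelled from 25 micrograms of total RNA per the labels. The authors deposited 1 ratio per spot and array, read as a linear ratio because all 19200 lie above 0 and array medians lie between 0.535 and 1.83; for scanner, background correction, normalization and numerator, nothing is stated in the labels. Symbols came from the platform annotation: 10601 spots had 1, 8599 had none, and 10455 matched the RefSeq gene table. Ratios were put on the log2 scale, centred per array and averaged to clones and genes. Groups were the 12 species and tissue combinations. The fit, with eBayes, gave 12 group means (limma 3.58.1 under R 4.3.3), and p-values were adjusted by Benjamini-Hochberg over the 6428 genes of each comparison; the script was tested on simulated data. Tables used Python 3.11.15, pandas 2.3.3 and numpy 2.4.6.

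The genes, lists and tests were chosen with earlier results of these data known. Named were genes called, the 3 highest and 3 lowest per comparison, genes with the most clones, the P proteins and paralogues, and the 5 highest and lowest overall means. Alternatives were other centring, scaling, print position, clone summaries, array weights, eBayes settings, a replicate block and arrays left out; removal of print row medians was chosen after seeing the data. Sequences and coordinates were not used here. The labels do not say that replicate numbers mark a bird or day. Same-numbered arrays were compared between tissues within a species only. Every such pair had a correlation of deviations over 0.1 for turkey liver with hypothalamus (r from 0.26 to 0.58) and for chicken muscle with fat (r from 0.17 to 0.36). No other pair of groups within a species did so, and in quail liver with hypothalamus r ran from 0.04 to 0.49. Same-numbered arrays of chicken hypothalamus ran opposite to the other chicken tissues. There r was from -0.58 to -0.03 with liver, from -0.37 to -0.12 with muscle and from -0.67 to -0.09 with fat. For chicken liver with fat it ran from -0.08 to 0.56.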

Additional observations from a re-analysis of the deposited data

Results flagged for a closer look

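Both results here concern RPLP2, the stalk protein, in livers of 4 arrays where 1 array stood far from the other 3. In turkey liver, replicate 4 read -1.61 while the other 3 read from -0.06 to 0.19. In quail liver, replicate 3 read -0.38 while the other 3 read from -2.10 to -1.90. A single sample this far from the rest turns up by chance in about 1 of 20 groups, and 70 groups were examined.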

How the results depend on the processing

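In 18 of 20 comparisons the count of genes called was 0, at its floor, and 4 of 379 repeats of these gave calls. The median difference moved by less than the spread between replicates in 404 of 406 repeats. That spread, pooled at 0.38, exceeds every main median, and these lay between -0.35 and 0.27. A median could thus reach 0 and still count as unmoved. The sign was the opposite in 76 of the repeats, over 13 of 19 comparisons, all with medians within 0.11 of 0. The median kept its sign throughout in duck and kestrel liver and in turkey and duck hypothalamus against chicken. It also did so in turkey liver against hypothalamus and in the turkey interaction. In chicken fat the count was 0 without centring of arrays and, RPS28 having 1 clone, with genes of at least 2 clones, and ran from 0 to 1 when 1 array was left out. In duck liver against chicken it was 1 with array weights (RPL23), and in duck hypothalamus 2 with array weights (RPL13, RPS15) and 0 to 2 when 1 array was left out. The F test called 0 genes with at least 2 clones, 5 with array weights and 1 to 3 when 1 array was left out. It called 3 without chicken muscle replicate 4, sparrow liver replicate 1 and duck hypothalamus replicate 3. These were left out together as arrays that stood apart. The median interaction was -0.48 for quail without centring and -0.40 for duck with equal median absolute deviation. Where the construction does not show it, the cause was not tested. With the replicate block the count was 1 in chicken fat, 1 for the F test and 0 in every other comparison. The shares of all named genes called under these other settings are not given here. Whether the counts stand off from those shares thus cannot be read. Numbers pair the samples in neither the labels nor most pairs of tissues of 1 species. Between species the numbers were not compared in this way. In turkey, quail and duck hypothalamus the median of the 44 genes was -0.09, -0.02 and -0.24 on replicate 1. On replicate 3 it was -1.04, -0.90 and -0.88, and what arrays of the same number share was not tested. Arrays of 3 or 4 per group left intervals wider than a 2-fold difference for most genes between species.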
